A study of Mus musculus with 6 samples.

Results

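The insulin-like growth factor (IGF) family was followed in 10T1/2 cells, a line of mouse embryonic fibroblasts. The family was taken as 10 genes, namely the ligands Igf1 and Igf2, the receptors Igf1r and Igf2r, and the binding proteins Igfbp2, Igfbp3, Igfbp4, Igfbp5, Igfbp6 and Igfbp7. Their members on the arrays were all probe sets assigned to 1 of these genes and to no other, which gave 23 of the 22690 probe sets of the MOE430A design and 5 of the 22575 of MOE430B. The labels give 1 condition and name no treatment, with the line kept in DMEM and 10% fetal bovine serum and harvested at 80% confluency. There were 3 RNA samples, with the numbers 1, 4 and 5, and each went onto 1 array of both Affymetrix designs, so that the series holds 6 arrays and no contrast between conditions. Whether these came from different cultures is not stated, and with 1 array per sample and design no difference between samples could be tested. Values are MAS5 signals in arbitrary units. A probe set was compared between samples but never with another probe set, because signals of different probe sets are not on a common scale.

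IGF1 and IGF2 are small secreted proteins related to insulin. Both act through the tyrosine kinase receptor IGF1R, which drives growth, survival and protein synthesis through the PI3 kinase and MAP kinase pathways, while IGF2R, the mannose 6-phosphate receptor, takes up IGF2 for breakdown and sorts lysosomal enzymes. The binding proteins are secreted by fibroblasts and other cells, hold most extracellular IGF, and can block or enhance its action, and mesenchymal cells are known to respond to IGF in growth and in muscle, fat and bone differentiation.

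The 3 samples were scaled alike, with a trimmed mean of 1501 for MOE430A and 1500.2 for MOE430B in every sample. The background limit of an array was the 95th percentile of signals from genes restricted to distant tissues. It lay between 993 and 1013 on MOE430A, from 122 probe sets. On MOE430B it lay between 4293 and 5153 and rests on 9 probe sets, so it is the less certain. A probe set above the limit on 3 of 3 arrays is called detected below. Of the fibroblast markers 8 of 9 measured were detected. Of the markers of endothelium, skeletal muscle, fat, cartilage and bone, and liver, 0 of 27 were. Some of these were above the limit in 1 or 2 samples. Fabp4 was in sample 5, at 2991, and Des in sample 1, at 1067. Col2a1 and Sp7 were in sample 4, at 2043 and 1091, and Kdr was in samples 1 and 4, at 1491 and 1108. Of the remaining cell types, the leukocyte genes Cd14 and Csf1r were detected, 2 of 6, and the epithelial gene Epcam, 1 of 6. Ptprc and Cdh1 were not detected. Epcam was detected by 1 of its 2 probe sets, which ends in _x_at. Csf1r was detected by 1 of its 3, just above the limit at 1191, 1222 and 1165 in samples 1, 4 and 5. In a bulk sample, fewer cells of a type and less RNA per cell cannot be told apart.

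Detection was limited to a part of the family. Of the 10 genes, 4 had a detected probe set, Igf1r, Igf2r, Igfbp4 and Igfbp7, where 26.5% of all 18194 measured genes did. A further 3, Igf1, Igfbp3 and Igfbp5, were above the limit in 1 or 2 samples, and Igf2, Igfbp2 and Igfbp6 in none, so that 7 of 10 were above it on some array, where 41.7% of all genes were. By probe set, 4 of 23 were detected on MOE430A, against 27% of the probe sets of this design that name 1 gene, and 1 of 5 on MOE430B, against 6.54%. Counted by probe set, sample 1 differed from the others. In it 13 of the 23 MOE430A probe sets were above the limit, with a share of 35.1% over all probe sets, whereas 7 were in sample 4 (34.6% over all) and 6 in sample 5 (34.3% over all). On MOE430B the count was 2 of 5 in sample 1 (9.08% over all), 2 in sample 4 (12.2%) and 1 in sample 5 (9.87%). Over both designs, the probe sets above the limit in samples 1, 4 and 5 numbered 4, 1 and 0 for Igf1. For Igfbp4 they numbered 5, 1 and 3. By gene, samples 1 and 4 did not differ, since each of the 7 genes had a probe set above the limit in both.

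**Figure D1:**
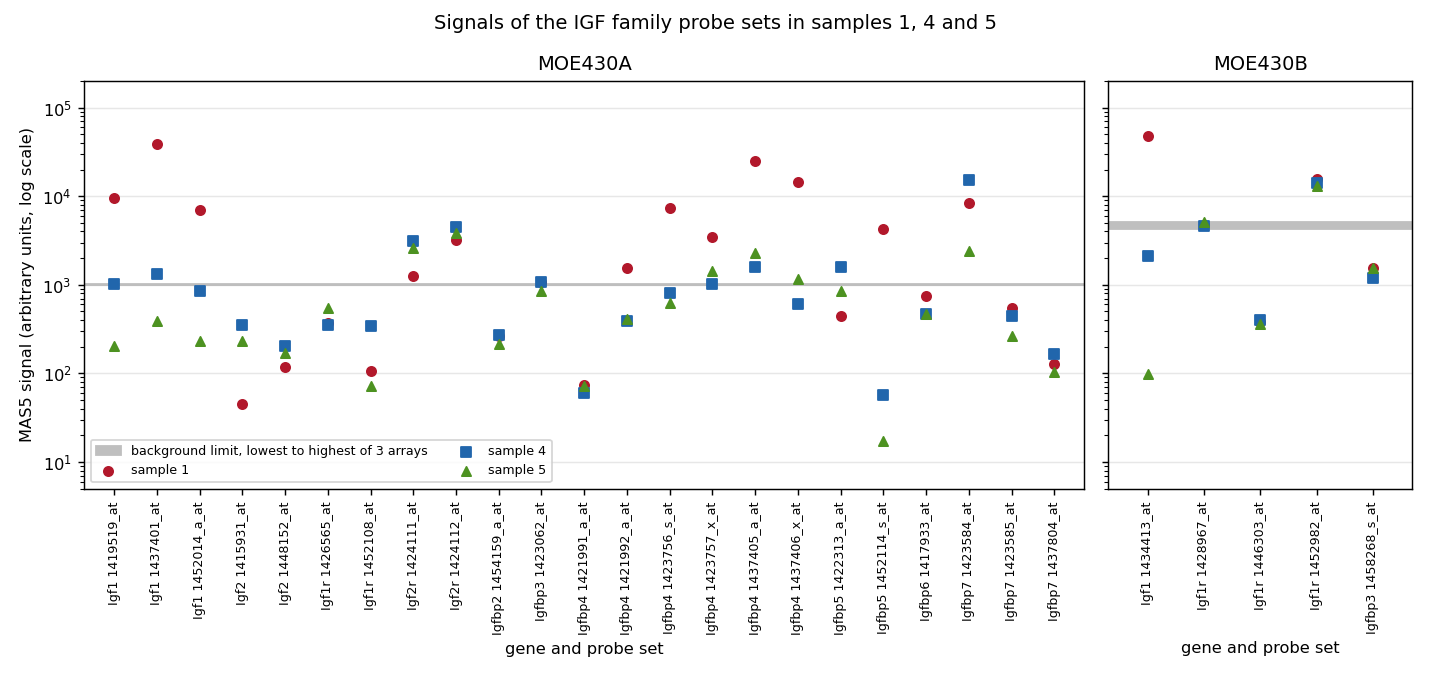
MAS5 signal of each IGF family probe set (log scale) in samples 1, 4 and 5, with MOE430A on the left and MOE430B on the right; the grey band spans the background limits of the 3 arrays of a design. The 4 Igf1 probe sets and 5 of the 6 of Igfbp4 were highest in sample 1 and above the limit there, while the Igf1r probe set 1452982_at and the Igf2r probe set 1424112_at were close together in the 3 samples.

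Igf1, the ligand that carries much of the action of growth hormone, was high in sample 1. The signal of probe set 1437401_at was 38433, 1333 and 389 in samples 1, 4 and 5. On MOE430B, probe set 1434413_at read 47730.0, 2099 and 99.5 in the same samples. Both were far above the limit in sample 1, and in sample 5 both were below it. The other MOE430A probe sets were above the limit in sample 1 only. 1419519_at read 9452, 1012 and 206, and 1452014_a_at read 6976, 844 and 232 in samples 1, 4 and 5. All 4 probe sets, each designed from a different source sequence, were thus above the limit in sample 1, 1 was in sample 4, and none in sample 5.

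Because values below the limit cannot be told from background, the size of this difference is a bound. Taking the limit itself for every signal that lay below it, a way of counting chosen after seeing the data, 1437401_at was at least 33.1-fold higher in sample 1 than the mean of samples 4 and 5 (5.05 on the log2 scale), and 1419519_at at least 9.35-fold and 1452014_a_at at least 6.90-fold higher. On MOE430B, 1434413_at was at least 10.1-fold higher. These bounds depend on the limit. With the 99th percentile as the limit they were 20.4-fold, 5.02-fold and 3.71-fold for the MOE430A probe sets in the same order, and with a limit from markers of other cell types the MOE430B difference was -0.028 (log2), so that the call was lost there. The 2 designs were separate hybridisations of the same RNA. The probe sets that both designs hold give a measure of the error between arrays of the same RNA. Over the 63 of 100 detected on both, the difference of sample 1 from the others departed between designs with an SD of 0.39 (log2) and by at most 1.02, with a median shift of 0.30 towards higher values on MOE430A. This is the error between arrays and does not include the spread between samples.

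Against all probe sets, the Igf1 excess was extreme. With low signals raised to the limit, 1437401_at had the largest excess in sample 1 among 20393 MOE430A probe sets naming 1 gene. Among 14674 of MOE430B, 1434413_at had the one after that of Ecrg4. Without raising, Igfbp5 1452114_s_at had a larger excess than 1437401_at, 7.08 against 5.74 (log2), from signals below the limit in samples 4 and 5. At least 8-fold higher in sample 1, with low signals raised, were 12 MOE430A probe sets, 0.0588% of all. Of them 4 were members, 2 of Igf1 and 2 of Igfbp4. The others, chosen for naming after their values were seen, belonged to Ptn, Atp1b1 with 2, C1s1, Ogn, Ccn3, Clu and Nrep. Ptn, which encodes the heparin-binding growth factor pleiotrophin, read 54623, 6060.0 and 262 in samples 1, 4 and 5.

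Igf2, the ligand that dominates fetal growth and is expressed from the paternal allele, was below the limit throughout. Its probe set 1415931_at read 45.0, 350 and 230 in samples 1, 4 and 5, and 1448152_at read 119, 205 and 171. Both probe sets come from the same source sequence. The signals give no measurable difference between samples, and a signal below the limit does not show that the transcript is absent.

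**Figure D2:**
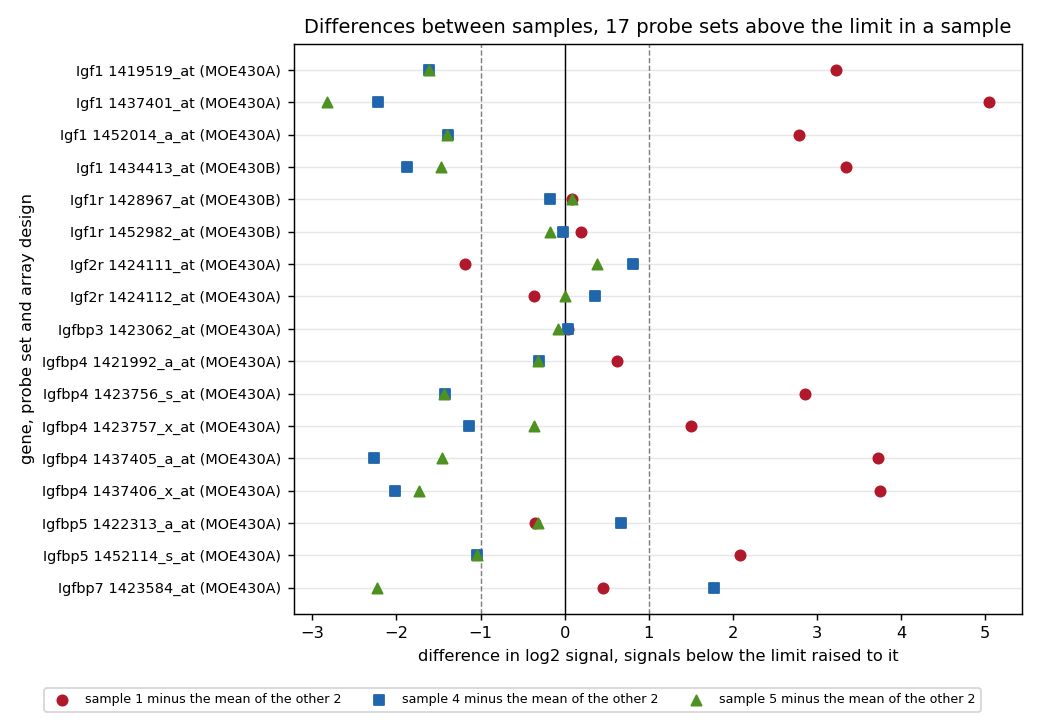
Difference in log2 signal between each sample and the mean of the other 2, for the 17 probe sets above the limit in any sample, with the limit in place of any signal below it; dashed lines mark 2-fold. Igf1, Igfbp4 and the Igfbp5 probe set 1452114_s_at lie to the right in sample 1, up to 5.05, and Igfbp7 lies to the left in sample 5, at -2.23.

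The detected receptor probe sets varied less between samples than did the Igf1 probe sets. Igf1r, the signalling receptor, was detected by probe set 1452982_at of MOE430B, with 15522, 14088 and 13053 in samples 1, 4 and 5 (14221 ± 1240.1, SD, n = 3). The samples lay within 1.19-fold of each other. A second probe set from the same source sequence, 1428967_at, read 4743, 4559.8 and 5070.2, around the limit of its design, and was above it in sample 4 only. With the MOE430A limit carried over to MOE430B through the common probe sets, an alternative chosen after seeing the data, it was detected too, and 9.51% of MOE430B probe sets were. The other Igf1r probe sets, 1426565_at, 1452108_at and 1446303_at, were below the limit in every sample, with signals from 72.7 to 551.

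Igf2r was detected by both of its probe sets on MOE430A. 1424112_at read 3234, 4509 and 3835 in samples 1, 4 and 5 (3859 ± 638, SD, n = 3). 1424111_at read 1253, 3155 and 2589 (2332 ± 977, SD, n = 3). Both were lowest in sample 1 and highest in sample 4, but by different amounts. The first was 1.29-fold lower in sample 1 than the mean of the others (-0.36 on the log2 scale) and the second 2.28-fold lower (-1.19), so that the size of the Igf2r difference rests on the probe set used. With the 99th percentile limit, the sample 1 signal of the second lay below the limit. Its difference is then a bound, at least 1.83-fold lower, which does not show whether it passed 2-fold. A further MOE430B probe set names Igf2r together with Airn, the noncoding RNA transcribed across the Igf2r start, and was left out of the members. It read 569, 609 and 1454 in samples 1, 4 and 5, all below the limit.

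Among the binding proteins, Igfbp4 was also high in sample 1. Igfbp4 binds IGF tightly, mostly restrains its action, and is cut by the protease PAPP-A. The signal of probe set 1437405_a_at was 25256, 1588 and 2309.7 in samples 1, 4 and 5, above the limit on all 3 arrays. It was 13.2-fold higher in sample 1 than the mean of the others (3.72 on the log2 scale), a ratio in which no signal was raised. 1437406_x_at, from the same source sequence, read 14497, 601 and 1154. 1423756_s_at read 7328, 811 and 621, and 1423757_x_at, again from a shared source, read 3432, 1010 and 1443. Sample 1 was highest for each of these, by at least 13.4-fold, at least 7.25-fold and at least 2.84-fold. With the 99th percentile limit these bounds were 7.70-fold, 3.89-fold and 1.82-fold.

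The last Igfbp4 source sequence also had 2 probe sets. 1421992_a_at read 1560.2, 386 and 407 in samples 1, 4 and 5 and was at least 1.54-fold higher in sample 1, but with the 99th percentile limit its difference was -0.27 (log2) and the excess was lost, while 1421991_a_at read 74.7, 59.6 and 71.9, below the limit in every sample. The 6 Igfbp4 probe sets thus stand for 3 source sequences, and the probe sets of all 3 included a signal above the limit in sample 1. These sources are not equal support. That of 1423757_x_at was measured only by probe sets ending in _s_at or _x_at, and the former can match several transcripts. That of 1421992_a_at lost its excess with the 99th percentile limit. Neither caution applies to 1437405_a_at, which was 12.5-fold higher in sample 1 with that limit. Between the other 2 samples, 1437405_a_at was 1.45-fold and 1423757_x_at at least 1.43-fold higher in sample 5 than in sample 4.

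Igfbp5, which also binds extracellular matrix and bone mineral, gave 2 contrary patterns. Probe set 1452114_s_at read 4283, 57.3 and 17.4 in samples 1, 4 and 5, above the limit in sample 1 only and at least 4.24-fold higher there, or 2.28-fold with the 99th percentile limit. 1422313_a_at, from another source sequence, read 448, 1599 and 852, above the limit in sample 4 only. The probe set ending in _s_at can match several transcripts. With different samples above the limit, these data give no direction for Igfbp5.

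Igfbp7, a matrix-associated relative with low affinity for IGF, differed in another sample. Probe set 1423584_at read 8381, 15383 and 2414 in samples 1, 4 and 5, above the limit in each. Sample 5 was 4.70-fold lower than the mean of the others (-2.23 on the log2 scale), and sample 4 was 3.42-fold higher (1.77). With sample 5 left out, sample 4 was 1.84-fold higher than sample 1, below 2-fold. 1423585_at read 550.2, 446 and 266, and 1437804_at read 127, 166 and 103. Both of these were below the limit on every array, so their order is not read.

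The remaining binding proteins were near or below background. Igfbp3, the main carrier of IGF in serum, read 1071, 1068 and 843 on MOE430A in samples 1, 4 and 5, just above the limit in samples 1 and 4 and below it in sample 5. Its MOE430B probe set read 1544, 1198 and 1566, below the limit. Igfbp6, which prefers IGF2, read 752, 472 and 473, and Igfbp2 read 264, 271 and 216, none above the limit. Each of these last 2 genes had 1 probe set, so no second measurement was at hand.

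The whole family was then counted against all probe sets. With low signals raised to the limit, 8 of the 23 MOE430A probe sets were at least 2-fold higher in sample 1 than the mean of samples 4 and 5, where 2.04% of all probe sets were, and 1 was at least 2-fold lower, where 2.21% were. The 8 belong to 3 genes, with 3 of Igf1, 4 of Igfbp4 and 1 of Igfbp5. Probe sets of a gene share their target, so they are not independent counts. The members were also chosen with earlier results of these data known. The counts above and below therefore describe the data and test nothing. At least 4-fold higher were 7 of the 23, against 0.284% of all. On MOE430B, 1 of 5 was at least 2-fold higher, that of Igf1, against 0.334% of all, and 0 were lower (0.518%). This probe set was also past 4-fold (0.0477%) and 8-fold (0.0136%). Without probe sets ending in _s_at or _x_at, 4 MOE430A probe sets stayed past 2-fold in sample 1.

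In sample 4, 8 of the 23 MOE430A probe sets were at least 2-fold lower than the mean of the others (0.77% over all) and 1 was at least 2-fold higher (0.824%), that of Igfbp7. In sample 5, 8 were lower (2.21%) and 0 higher (2.86%). On MOE430B, 1 of 5 was lower in sample 4 (0.245%) and 1 in sample 5 (0.402%), both times that of Igf1, and 0 were higher (0.293% and 0.681%). Sample 1 enters the mean that the other samples are set against. With sample 1 left out, 0 probe sets were at least 2-fold lower in sample 4 than in sample 5, and 1, that of Igfbp7, was at least 2-fold lower in sample 5 than in sample 4.

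Kept to probe sets above the limit on all 3 arrays, the count is small. Of the 4 on MOE430A, Igfbp4 1437405_a_at was past 2-fold higher in sample 1 (4.73% over all detected) and Igf2r 1424111_at past 2-fold lower (5.93%). In sample 4, Igfbp7 1423584_at was past 2-fold higher (2.09%) and Igfbp4 1437405_a_at past 2-fold lower (1.9%). In sample 5, 0 were higher (6.91%) and 2, those of Igfbp4 and Igfbp7, were lower (5.99%). This filter leaves out Igf1, whose signals were below the limit in sample 5 and, but for 1437401_at, in sample 4. On MOE430B 1 probe set was detected, of Igf1r, and it was within 2-fold in each sample. Over all detected MOE430B probe sets, 2.5% were past 2-fold higher and 5% lower in sample 1, 2.5% and 2.19% in sample 4, and 6.35% and 3.75% in sample 5.

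**Figure D3:**
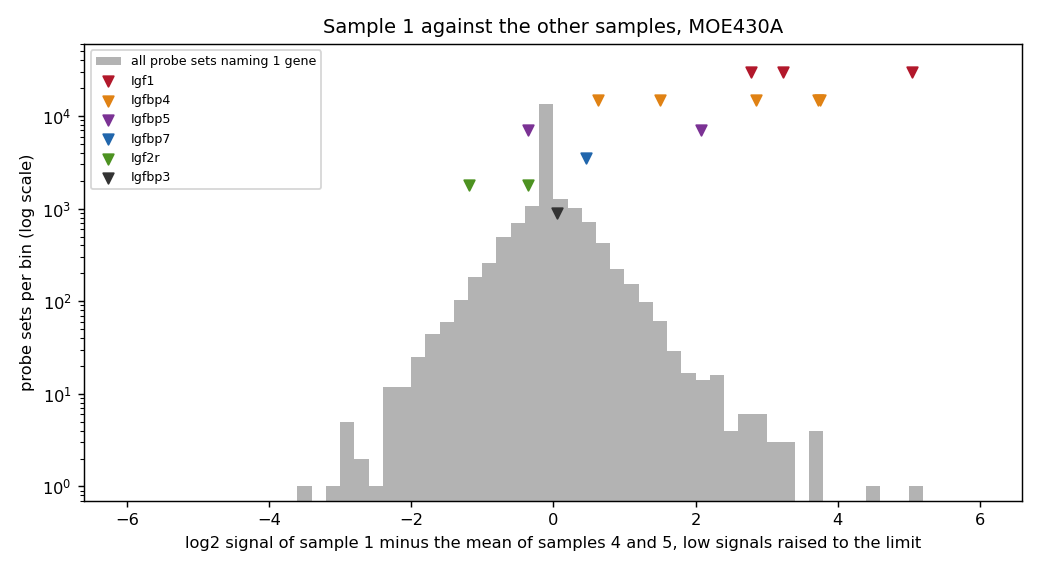
Histogram of the difference in log2 signal between sample 1 and the mean of samples 4 and 5 over the 20393 MOE430A probe sets naming 1 gene (counts on a log scale), with low signals raised to the limit; triangles mark IGF family probe sets by gene, at heights chosen for legibility only. An Igf1 probe set lies farthest to the right of all, at 5.05, and 2 of Igfbp4 lie at 3.72 and 3.75.

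The start regions of the 3 genes with a probe set at least 4-fold higher in sample 1 are shown so that their base composition can be seen. Igfbp5 is among them by 1452114_s_at alone, and these data give no direction for that gene. The region of Igf2r is shown as an example of the members that had no such probe set. Each sequence is the 250 bases before the annotated start of transcription, from RefSeq, build GRCm38.p6, given 5′ to 3′ on the strand of the gene. RefSeq gave such a region for all 10 genes. Igf1 lies at chr10:87860861-87861110 (plus strand) and Igfbp4 at chr11:99040994-99041243 (plus), and for both the start lies inside the outer bounds of the gene. Igfbp5 lies at chr1:72874866-72875115 (minus) and Igf2r at chr17:12769707-12769956 (minus). Capitals mark matches on either strand to 4 motifs. The TATA box was searched for as TATAAA. The CCAAT box was searched for under the letters of its name, and its match in Igf1 is on the other strand, where it reads ATTGG. The GC box was searched for as GGGCGG. The E-box was searched for as CACGTG, which reads alike on both strands. No marked match overlaps another.
Igf1: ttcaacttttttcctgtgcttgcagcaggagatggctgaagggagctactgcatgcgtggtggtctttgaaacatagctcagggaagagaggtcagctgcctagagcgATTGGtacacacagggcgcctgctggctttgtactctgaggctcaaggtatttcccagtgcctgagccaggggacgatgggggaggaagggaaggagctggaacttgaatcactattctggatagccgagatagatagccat
Igfbp4: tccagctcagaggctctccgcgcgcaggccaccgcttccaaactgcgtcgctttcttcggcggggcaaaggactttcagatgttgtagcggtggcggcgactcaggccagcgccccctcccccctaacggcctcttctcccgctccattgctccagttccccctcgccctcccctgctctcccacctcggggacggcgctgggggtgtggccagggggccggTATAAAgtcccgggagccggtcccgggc
Igfbp5: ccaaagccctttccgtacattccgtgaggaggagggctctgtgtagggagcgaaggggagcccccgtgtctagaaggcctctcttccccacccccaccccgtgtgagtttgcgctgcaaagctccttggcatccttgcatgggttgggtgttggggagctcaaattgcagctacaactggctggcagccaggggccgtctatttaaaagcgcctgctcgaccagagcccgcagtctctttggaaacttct
Igf2r: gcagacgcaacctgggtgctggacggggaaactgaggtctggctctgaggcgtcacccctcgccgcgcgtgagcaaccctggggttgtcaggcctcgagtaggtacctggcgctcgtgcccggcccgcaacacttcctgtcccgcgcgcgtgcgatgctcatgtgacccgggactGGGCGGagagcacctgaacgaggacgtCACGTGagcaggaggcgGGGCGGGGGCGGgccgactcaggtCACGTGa
Igf1 and Igfbp4 share none of these motifs. Igf1 had 1 CCAAT box, a motif of 33.8% of all 32851 RefSeq start regions of this length. Igfbp4 had 1 TATA box, present in 12.4% of all. Igfbp5 had no match to the 4 motifs. Igf2r had 3 GC boxes and 2 E-boxes, present in 32.7% and 6.02% of all. The share of G and C was 52.8% in Igf1, 69.2% in Igfbp4, 58.8% in Igfbp5 and 69.2% in Igf2r, against a median of 52.4% over all. A match is a description of the sequence, not of binding.

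Genes with a pattern like that of a member were sought among detected probe sets of MOE430A by the distance between the log2 deviations of the 3 samples. The measure rests on 3 samples, which share their arrays with the member. For Igfbp4 1437405_a_at no probe set lay within 0.25, and the nearest were those of Selenop at a distance of 1.21, Sec62 at 1.33 and Rev3l at 1.42. Selenop, the gene of a secreted selenium carrier, read 25259.6, 4649 and 2576 in samples 1, 4 and 5. For Igfbp7 1423584_at, 2 of 5512 probe sets lay within 0.25, of Gstm1 at 0.15 and of the matrix gene Emilin1 at 0.21, followed by the collagen-binding matrix gene Sparc at 0.30. Emilin1 read 4180.0, 8818 and 1133. For Igf2r 1424111_at, 59 lay within 0.25, led by Sri, Tecr and Loxl3.

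The genes that carry the signal inside the cell were measured beside the family. Of the IGF signalling list, 27 of 35 genes had a probe set of their own, and 19 (70.4%) were detected, where 26.5% of all genes were. Their highest and lowest samples differed by 1.15-fold to 3.84-fold, with a median of 1.55-fold, and by 2-fold or more for 3 of the 19. The genes went in both directions, with a median difference from the mean of the others of 0.11 in sample 1, 0.19 in sample 4 and -0.01 in sample 5 (log2), and with medians of -0.01, 0.02 and -0.02 over all detected genes. Insr, the insulin receptor, read 5811, 9694 and 11053 in samples 1, 4 and 5 on MOE430B. Irs1, the adaptor that links the receptors to PI3 kinase, read 6709.9, 4506 and 2322, and was thus highest in sample 1. Irs2, a related adaptor, was not detected, at 259, 302 and 495.

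In this list the widest differences among detected genes belonged to Eif4ebp1, Irs1 and Pik3r2. Eif4ebp1, a repressor of translation that mTOR switches off, read 4642, 5060.1 and 17828 in samples 1, 4 and 5 and was highest in sample 5. Pik3r2, a regulatory subunit of PI3 kinase, read 3806, 4030.4 and 1926. At least 2-fold from the mean of the others were 1 gene higher and 1 lower of 19 in sample 1 (4.51% and 4.84% over all detected genes), 0 in sample 4 (2.13% and 2.03%), and 1 higher and 2 lower in sample 5 (5.98% and 5.65%). These counts of 0 to 2 genes are too small to set apart from the shares of all genes.

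**Figure D4:**
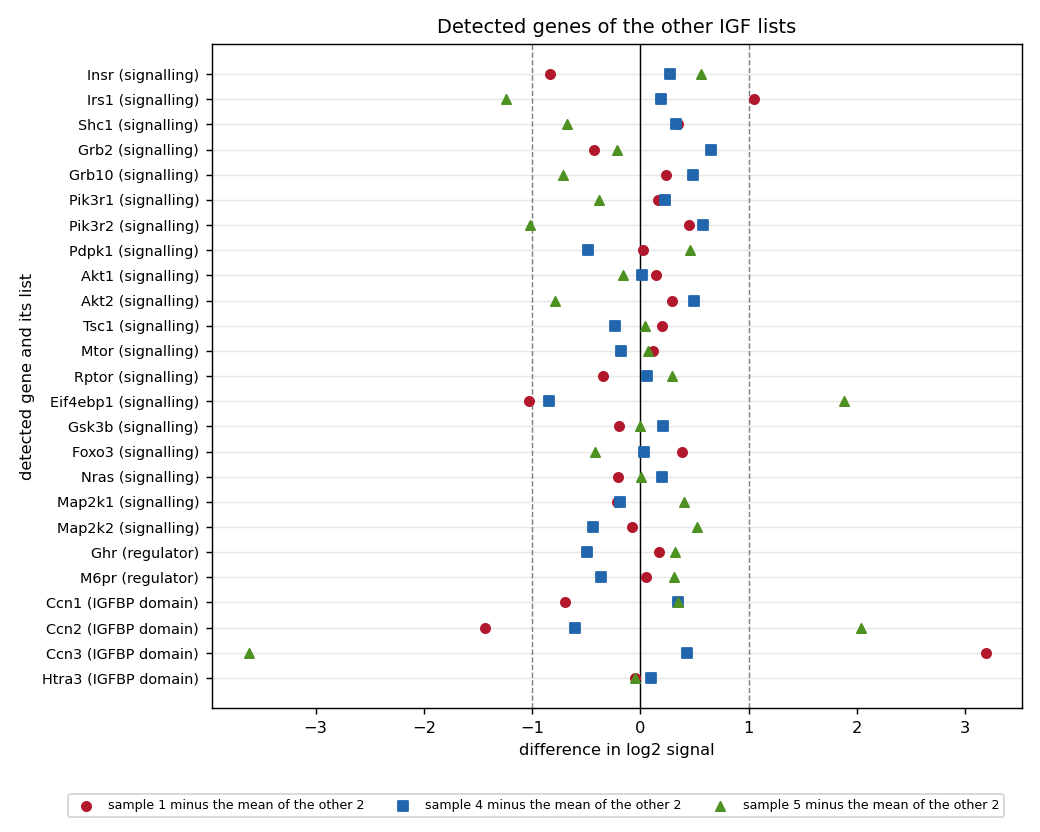
Difference in log2 signal between each sample and the mean of the other 2 for the detected genes of the IGF signalling list, of the regulators of binding proteins and of other genes with an IGFBP domain; dashed lines mark 2-fold. Most genes lie between the lines, and Ccn3, Ccn2, Eif4ebp1, Irs1 and Pik3r2 lie outside them in 1 or more samples.

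Of the regulators of IGF and its binding proteins, 2 of 10 measured genes were detected. These were Ghr, the growth hormone receptor, with 11682, 8601 and 12481 in samples 1, 4 and 5, and M6pr, the smaller mannose 6-phosphate receptor, with 4889, 4046 and 5518. Neither reached 2-fold. Pappa and Pappa2, proteases that cut binding proteins, and Stc1, an inhibitor of such cleavage, were not detected. Pappa read 2481, 1550.4 and 1569 on MOE430B, Pappa2 read 2676, 1930.1 and 4418 on the same design, and Stc1 read 1556, 116 and 940.0 on MOE430A, above the limit in sample 1 only.

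Other genes whose proteins hold an IGFBP domain had 4 of 14 detected. Ccn3 (listed as Nov) showed the widest difference of the detected genes, with 43171, 12069 and 1856 in samples 1, 4 and 5. These are values of its 1 detected probe set, which ends in _x_at, and without such probe sets the count past 2-fold over genes and samples of this list was 2 in place of 4. The other Ccn3 probe set read 15832, 5756 and 642, below the limit in sample 5. Ccn2 (listed as Ctgf), which promotes matrix production, was highest in sample 5, with 1048, 1544 and 5232. Ccn1 (listed as Cyr61) read 1561, 2528 and 2527. Igfbp1, the binding protein of liver, read 246, 60.3 and 12.9, and Igfbpl1 read 198, 86.7 and 62.0, none above the limit. In sample 1, 1 of the 4 was at least 2-fold higher and 1 at least 2-fold lower, and in sample 5 likewise 1 and 1, where the shares over all detected genes are those given above.

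Other measures moved with the samples. The ratio of 3′ to 5′ control signal, a sign of RNA or target integrity that is higher for shorter products, was highest in sample 1. For Gapdh on MOE430A it was 24.7, 15.0 and 10.6 in samples 1, 4 and 5, and for Actb 17.5, 9.57 and 8.68. On MOE430B it was 23.4, 14.0 and 11.5 for Gapdh and 20.2, 8.23 and 10.8 for Actb. The lowest ratio on any array was 8.23, so the 3′ signal was far above the 5′ signal in every sample, not in sample 1 alone. The part of this 3′ excess in signals below the limit, and in disagreements between probe sets of the same gene, was not tested. The 9 detected cell cycle genes had a median difference of -1.94 (log2) in sample 1, 0.68 in sample 4 and 0.63 in sample 5. The 17 detected fibrillar matrix genes stood at 1.11, 0.85 and -1.87, and their lowest sample was also that of Igfbp7. The part of these measures in the IGF family differences was not tested.

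**Figure D5:**
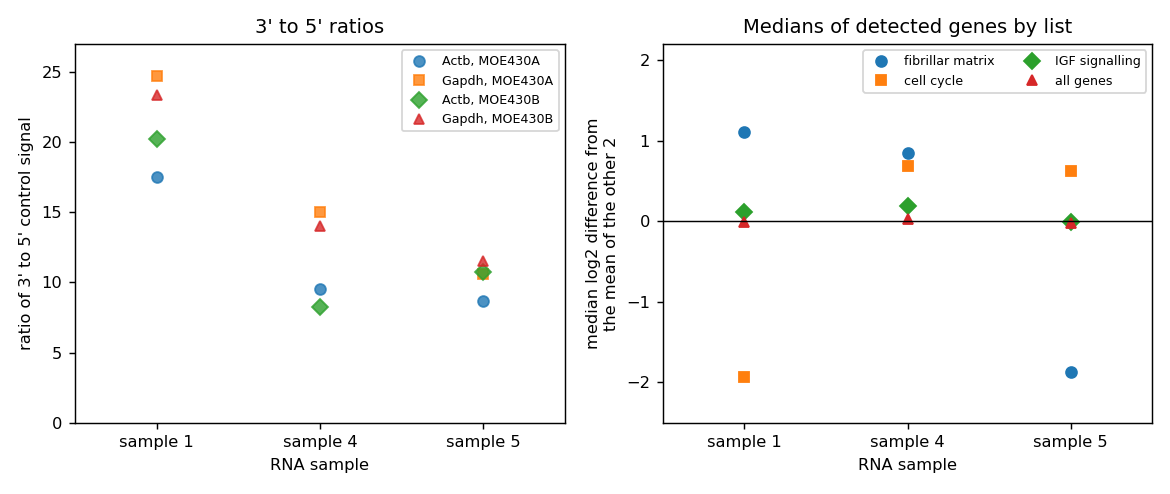
Left, the ratio of 3′ to 5′ signal of the Gapdh and Actb control probe sets on each array; right, the median log2 difference from the mean of the other 2 samples for detected genes of 3 lists and of all genes. Sample 1 has the highest ratios, from 17.5 to 24.7, and the lowest cell cycle median, and sample 5 has the lowest matrix median.

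The run settings showed the same fluidics protocol for all 6 arrays. The MOE430A array of sample 5 ran on station 2 and the other 5 arrays on station 1. The module was 3, 4 and 1 for samples 1, 4 and 5 on MOE430A, and 1, 2 and 3 on MOE430B. The part of these settings in the sample differences was not tested. No 2 arrays held identical values.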

How the data were processed

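Gene expression was measured in 3 RNA samples of 10T1/2 fibroblasts on Affymetrix MOE430A and MOE430B arrays. RNeasy served for RNA isolation, per the labels. The authors deposited 1 linear signal intensity per probe set, made with MAS5 per the submitters' processing notes, with version and settings not given in the sources used here and no detection calls. The designs were kept apart except in the use of their common probe sets and in counts and lists by gene. Gene names came from the platform annotation, updated through RefSeq GRCm38.p6. Signals were set to at least 1 before log2. The limit was the 95th percentile of a background list of 104 genes. With 1 array per sample no test was possible, and differences are given as values beside the share of all probe sets past the same fold. Run settings, per the file headers, were read as text. The calculation was tested on simulated data. Python 3.11.15, pandas 2.3.3 and numpy 2.4.6 were used. The members and lists were chosen with earlier results of these data known. Genes named are all members, the first 3 of each other IGF list, and its 3 detected genes of widest range. For the matrix and cell cycle lists medians are given. Alternatives changed the limit, detection rule, normalization, centring, pseudocount, fold, filter and probe sets, and left out each sample. 0 columns of sample values were left unused.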

Additional observations from a re-analysis of the deposited data

How the results depend on the processing

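Of 444 comparisons of a value with its alternatives, 388 differed by less than the spread over the 3 samples or within 1.5 times. That spread is wide for a probe set that differs between samples, and some settings could not change some values. The count is therefore no measure of robustness. Igfbp4 1421992_a_at was among the 388 though its difference in sample 1 went from 0.63 to -0.27 (log2) at the 99th percentile limit. Detected MOE430A probe sets numbered 4, and 2 at the 99th percentile limit and 8 with 2 of 3 arrays required. On MOE430B 1 was detected, 2 at the 90th percentile or with the limit moved from MOE430A (chosen after seeing the data), and 0 with a limit from markers of other cell types. Under that marker limit Igf1 1434413_at stood at -0.028 (log2) in sample 1 instead of 3.34, and 0 MOE430B probe sets were at least 2-fold higher there. That list holds the Epcam probe set, at 29693 to 139544. Detected MOE430A probe sets past 2-fold, 2 in each sample, became 1 at 3-fold in samples 1 and 5. With low signals raised they were 9, 9 and 8 in samples 1, 4 and 5, and 9, 7 and 8 with a filter on mean signal. On MOE430B, 0 in each sample became 1 in each with low signals raised, and 1 in samples 1 and 5 with the mean filter. With low signals raised, counts chosen after seeing the data, 8 MOE430A probe sets higher in sample 1 became 4 without _s_at and _x_at probe sets. The 8 lower in sample 5 became 5 at the 99th percentile limit, 4 at 3-fold and 5 without those endings, and the 8 lower in sample 4 became 4 at 3-fold and 4 without them. IGF signalling genes and samples past 2-fold numbered 5, and 11 at 1.5-fold and 1 at 3-fold. Those of the regulators numbered 0, 3 with low signals raised and 4 with the mean filter, which also moved their median in sample 4 to -0.79. Those of IGFBP domain genes numbered 4, and 7, 8 and 2 with low signals raised, the mean filter and without those endings, and the mean filter turned their median in sample 1 to 0.65, against -0.37. The causes were not tested. With a sample left out, detected past 2-fold counts ranged from 3 to 5 in sample 1, 1 to 3 in sample 4 and 1 to 5 in sample 5, and with low signals raised from 1 to 9 lower in sample 5 and 0 to 8 lower in sample 4. The 8 higher in sample 1 ranged from 8 to 9. Without sample 1 its own differences have no value. No paired analysis was possible because the sample numbers are shared only between array designs, which are not compared. Signal over background limits most members, since 53 of the 84 member signals were below the limit, and differences that rest on these are bounds.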

Other observations

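Some genes of the lists that were not detected on all 3 arrays, named here after their values were seen, also differed between samples. Plagl1, an imprinted zinc finger gene known to act on Igf2 and other imprinted genes, read 6159, 898 and 857 in samples 1, 4 and 5, above the limit in sample 1 only, by its brightest of 3 probe sets. Htra1, a secreted protease, read 2796, 784 and 1559, above the limit in samples 1 and 5. Ccn5 (listed as Wisp2) read 2474, 1262 and 405, above the limit in samples 1 and 4. Esm1, a secreted proteoglycan gene, read 76.6, 24.9 and 1798, above the limit in sample 5 only.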
